A study of Mus musculus with 12 samples.

Results

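The genes described here are the 10 genes of the Hippo kinase cassette and its upstream scaffolds: *Nf2*, *Stk3*, *Stk4*, *Sav1*, *Lats1*, *Lats2*, *Mob1a*, *Mob1b*, *Wwc1* and *Wwc2*. They were chosen by symbol, were present in all 12 tables among 18926 genes, and all 10 passed the filter on low counts that left 18053 genes. RNA was from S1 cells, a mouse gastric cancer line of ChetPS origin (deficient in *Cdh1*, *Trp53* and *Smad4*) that expresses Cas9 and carries lentiviral guide RNAs, grown as tumorspheres in low-attachment plates. The sample labels call the cells a monolayer, and the study describes tumorspheres. There were 3 libraries in each of 4 groups: control cells (a guide without a target or the plasmid backbone), *Nf2*-KO, *Rasa1*-KO, and *Rasa1* with *Nf2* knocked out (double-KO). The labels and the names of the deposited tables differ for *Rasa1*-KO and double-KO. The 3 libraries labelled *Rasa1*-KO have tables named "Do", while the tables of the 3 labelled double-KO carry the *Rasa1*-KO name. The name "Do" is read here as double-KO, which is an inference. Under that reading the table names exchange these groups. The groups are therefore written "labelled *Rasa1*-KO" and "labelled double-KO" throughout. A figure legend of the study calls its replicates technical, so all SDs and p-values measure the spread between libraries, which may be technical.

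In the Hippo pathway, the kinases STK3 and STK4 (MST2 and MST1), held together by the scaffold SAV1, phosphorylate LATS1 and LATS2 with the help of MOB1A and MOB1B. LATS kinases in turn phosphorylate YAP and TAZ, which keeps these co-activators away from TEAD transcription factors. NF2 (merlin) is a membrane-associated scaffold that brings LATS kinases to the plasma membrane, and WWC1 (KIBRA) and WWC2 act beside it. *LATS2*, *AMOTL2* and *AJUBA* are known in other cells as genes that YAP and TEAD can induce. The pathway restrains growth in gastric epithelium as in other epithelia.

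RefSeq promoters are shown for *Nf2*, the targeted gene, and for *Lats2* and *Sav1*, which rose in *Nf2*-KO and labelled *Rasa1*-KO. That of *Wwc2*, which held the most TEAD motifs, is shown as well. They are from GRCm38.p6 and hold the bases before the start annotated for each promoter, which can differ from the start of the gene span. Capitals mark the TEAD motif GGAATG or its complement CATTCC, and the AP-1 motif TGANTCA was searched on both strands as well.
Nf2: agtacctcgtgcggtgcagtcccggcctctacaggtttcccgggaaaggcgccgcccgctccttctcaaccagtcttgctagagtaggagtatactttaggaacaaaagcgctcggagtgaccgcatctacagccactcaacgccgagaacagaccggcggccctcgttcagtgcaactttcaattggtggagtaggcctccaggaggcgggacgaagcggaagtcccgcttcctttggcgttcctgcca
Lats2: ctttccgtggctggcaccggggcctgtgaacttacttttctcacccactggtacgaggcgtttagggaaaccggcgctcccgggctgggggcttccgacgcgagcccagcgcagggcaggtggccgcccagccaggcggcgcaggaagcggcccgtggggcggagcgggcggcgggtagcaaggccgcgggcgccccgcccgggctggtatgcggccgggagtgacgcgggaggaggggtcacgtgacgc
Sav1: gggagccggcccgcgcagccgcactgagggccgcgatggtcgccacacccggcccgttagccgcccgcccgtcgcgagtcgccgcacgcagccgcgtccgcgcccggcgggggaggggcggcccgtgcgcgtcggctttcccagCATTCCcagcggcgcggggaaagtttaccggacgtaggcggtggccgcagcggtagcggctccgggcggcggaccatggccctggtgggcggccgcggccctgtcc
Wwc2: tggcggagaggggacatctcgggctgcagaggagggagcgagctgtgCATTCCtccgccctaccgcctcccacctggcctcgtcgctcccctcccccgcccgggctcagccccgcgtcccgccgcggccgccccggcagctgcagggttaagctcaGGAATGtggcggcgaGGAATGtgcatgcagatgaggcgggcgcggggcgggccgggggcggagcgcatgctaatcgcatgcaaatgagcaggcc
These 250-base windows were chr11:4849545-4849794, chr14:57746124-57746373, chr12:69987003-69987252 and chr8:47990545-47990794, respectively, all on the minus strand. The *Nf2* and *Wwc2* windows adjoin the gene spans given below, and the *Lats2* window partly overlaps its span. The *Sav1* window, with its TEAD motif, lies inside the *Sav1* span. The table held 11 promoters for 9 of the members, and *Stk3* had none. The TEAD motif was present in 3 of the 11 promoters, once in *Sav1*, once in *Mob1a* and 3 times in *Wwc2*. Among all 32851 promoters of the table, 12.6% held it, and 11.3% of the 15879 promoters of genes tested did. The AP-1 motif was in 0 of the 11 member promoters and in 6.75% of all promoters. *Nf2* and *Lats2* each had a second annotated promoter, without either motif. A match describes the letters of the window and not a bound site.

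Counts per library summed to between 43818139 and 96674463, and a member had between 923 and 14959 counts in a library. Within each group, pairs of libraries gave median chi-square values over genes from 2.52 to 47.6, where sampling alone gives 0.455. The control libraries stood apart from each other. For transcript length, each gene had the median over the 12 libraries of its count divided by FPKM and depth, and not an annotated length. Genes were split into 4 equal bins by transcript length, and the median centred log2 CPM of the longest bin minus that of the shortest was -0.32, 0.49 and 0.85 in control unnumbered, 1 and 2. It lay between -0.39 and 0.24 in the other 9 libraries. Epithelial markers (*Epcam*, *Krt8*, *Krt18*, *Krt19* and *Cldn3*, with 5 of 6 listed genes in the tables) summed to between 3631 and 7118 CPM, whereas the 4 gastric markers measured of 7 listed (*Cldn18*, *Muc5ac*, *Tff1* and *Tff2*) summed to between 1.36 and 10.3 CPM. The epithelial sum is mostly keratins, and *Epcam* fell from 64.3 ± 3.25 CPM (SD, n = 3) in control to 10.4 ± 0.381 CPM in *Nf2*-KO, 22.0 ± 0.508 CPM in labelled *Rasa1*-KO and 35.9 ± 10.7 CPM in labelled double-KO. Fibroblast markers (4 of 5 in the tables) summed to between 32.8 and 119 CPM in control, 560 and 665 CPM in *Nf2*-KO, 138 and 180 CPM in labelled *Rasa1*-KO, and 17.2 and 25.8 CPM in labelled double-KO. *Col1a1*, *Col1a2* and *Pdgfra* rose in *Nf2*-KO and labelled *Rasa1*-KO, whereas *Dcn* fell from 60.8 ± 25.1 CPM in control to 36.9 ± 2.59, 27.8 ± 0.710 and 13.8 ± 1.16 CPM in the 3 groups. Immune markers (2 of 5 in the tables) summed to between 5.60 and 21.6 CPM and endothelial markers (2 of 4) to at most 1.76 CPM. The part of *Epcam* and of the fibroblast markers in the values below was not tested.

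*Nf2* (Entrez gene 18016, chr11:4757639-4849544, GRCm38) was low in *Nf2*-KO and in labelled *Rasa1*-KO and at the control level in labelled double-KO. Control libraries held 58.1, 61.0 and 55.4 CPM (counts scaled to a common library size, normalized by TMM). *Nf2*-KO libraries held 14.3, 13.2 and 13.2 CPM, and labelled *Rasa1*-KO libraries 11.6, 11.9 and 12.1 CPM. Those labelled double-KO held 62.6, 57.6 and 56.4 CPM. The 3 libraries of *Nf2*-KO and the 3 labelled *Rasa1*-KO lay below every control library, and those labelled double-KO overlapped control. *Nf2* was 4.28-fold lower in *Nf2*-KO than in control (log2 fold change -2.10, 95% confidence interval -2.30 to -1.90, edgeR adjusted p = 2.47e-08). It was 4.90-fold lower in labelled *Rasa1*-KO (log2 -2.29, -2.49 to -2.09, edgeR adjusted p = 2.90e-08). In labelled double-KO the interval was -0.17 to 0.21 (edgeR adjusted p = 0.934). These *Nf2* levels go against the labels and not against the table names. An mRNA level alone does not show whether a gene was cut, since small deletions can leave an mRNA in place.
*Rasa1* (Entrez gene 218397, chr13:85214699-85289486), the other targeted gene, encodes a GTPase-activating protein for Ras. It held 60.5, 74.9 and 78.5 CPM in control, 34.5, 30.4 and 30.8 CPM in labelled *Rasa1*-KO and 17.7, 20.6 and 23.3 CPM in labelled double-KO. *Rasa1* was below control in both of these groups, and it was lower in labelled double-KO than in labelled *Rasa1*-KO (log2 -0.63, -0.91 to -0.36, edgeR adjusted p = 0.00322). In *Nf2*-KO it held 97.2, 101 and 97.2 CPM, above every control library (log2 0.47, edgeR adjusted p = 0.0108).

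**Figure D1:**
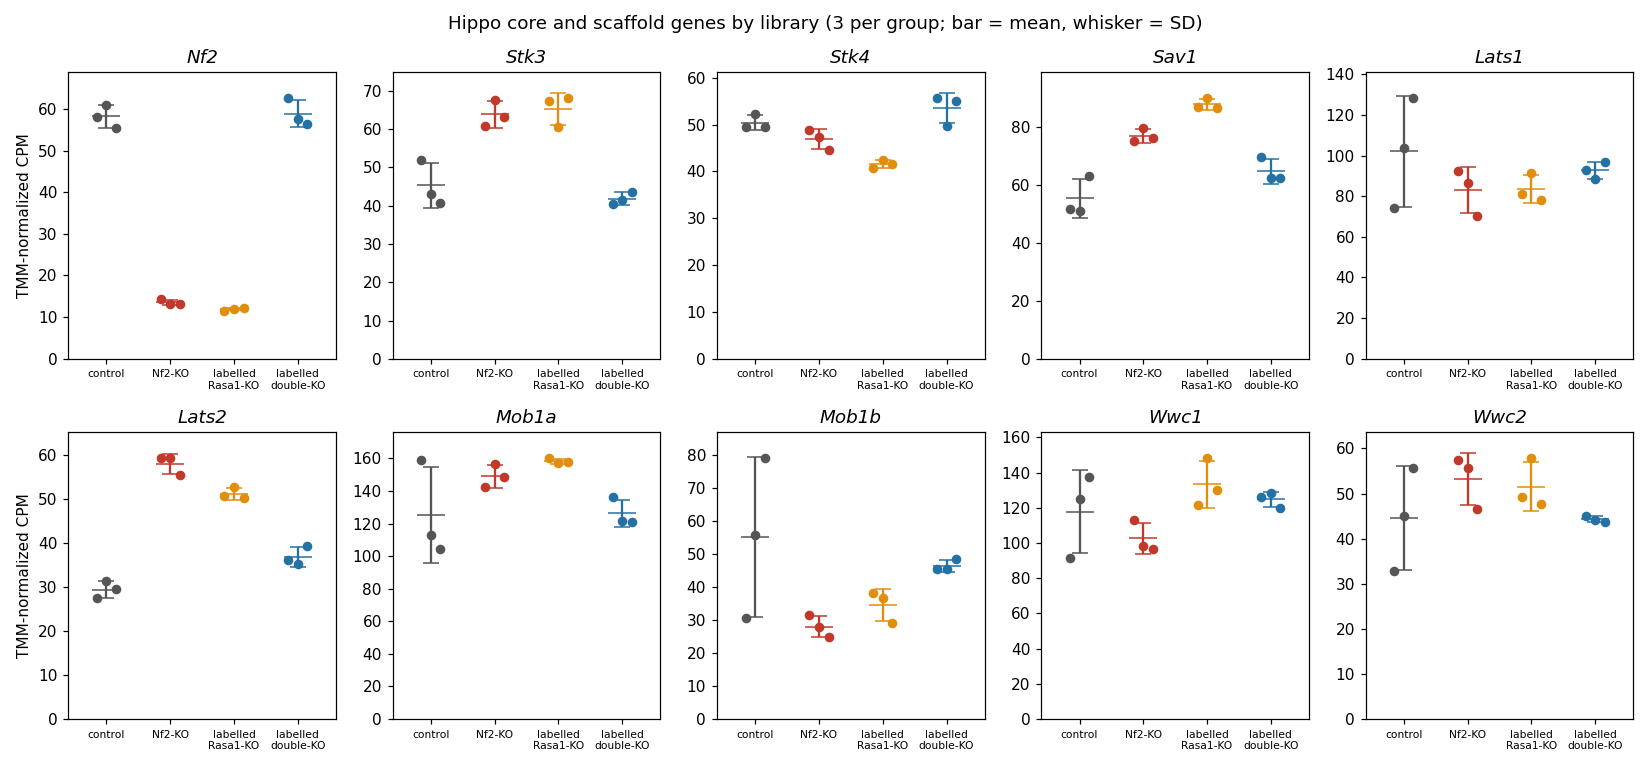
TMM-normalized CPM (vertical axes, each from 0) of the 10 genes in every library of the 4 groups, with points for libraries, bars for the mean and whiskers for the SD (n = 3). *Nf2* lay between 11.6 and 14.3 CPM in *Nf2*-KO and labelled *Rasa1*-KO, where *Lats2*, *Sav1* and *Stk3* lay above every control library.

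Levels of different genes were compared per length, as the deposited FPKM. *Mob1a* was the most abundant member in every group, from 33.9 ± 2.09 FPKM (SD, n = 3) in labelled double-KO to 42.4 ± 0.485 FPKM (SD, n = 3) in labelled *Rasa1*-KO. In control it was followed by *Wwc1* (25.2 ± 6.34 FPKM), *Sav1* (20.7 ± 3.59), *Mob1b* (17.0 ± 8.19), *Stk3* (14.9 ± 1.16), *Lats1* (13.8 ± 4.38), *Nf2* (12.3 ± 0.972), *Stk4* (8.04 ± 0.348), *Wwc2* (6.58 ± 2.01) and *Lats2* (5.55 ± 0.599), as mean FPKM ± SD. *Mob1a* lay apart from *Wwc1*, and *Nf2* from *Stk4*, whereas all other neighbours in this order overlapped. *Lats2*, the least abundant member in control, reached 10.4 ± 0.585 FPKM (SD, n = 3) in *Nf2*-KO, where it overlapped *Lats1* at 10.6 ± 1.58 FPKM. *Nf2* was the least abundant member in *Nf2*-KO (3.05 ± 0.541 FPKM) and in labelled *Rasa1*-KO (2.52 ± 0.264 FPKM). In labelled double-KO the least abundant members were *Wwc2* (6.0 ± 0.156 FPKM) and *Lats2* (6.40 ± 0.650 FPKM), which overlapped.

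Of the LATS kinases, *Lats2* rose and *Lats1* did not pass the test in any comparison with all 12 libraries. *Lats2* (Entrez gene 50523, chr14:57689662-57746212) held 27.4, 31.3 and 29.4 CPM in control and 59.2, 59.2 and 55.3 CPM in *Nf2*-KO. It held 50.6, 52.6 and 50.1 CPM in labelled *Rasa1*-KO and 36, 35.1 and 39.3 CPM in labelled double-KO. Every library of the 3 groups lay above the control libraries, and those labelled double-KO lay between control and the other groups. *Lats2* was 1.97-fold higher in *Nf2*-KO than in control (log2 0.98, 95% confidence interval 0.78 to 1.18, edgeR adjusted p = 6.40e-06) and 1.74-fold higher in labelled *Rasa1*-KO (log2 0.80, 0.60 to 1.00, edgeR adjusted p = 4.02e-05). In labelled double-KO its log2 difference was 0.32 (0.13 to 0.52), which missed the threshold (edgeR adjusted p = 0.0537). With a replicate block by the numbers of the table names, the log2 difference of *Lats2* there was 0.32 and passed it (edgeR adjusted p = 0.0297). Without control unnumbered it was 0.28 and also passed (edgeR adjusted p = 0.0267). The labelled double-KO level was lower than that of labelled *Rasa1*-KO (log2 -0.47, edgeR adjusted p = 0.00228) and than that of *Nf2*-KO (log2 -0.65, edgeR adjusted p = 1.98e-04). In GENCODE M21, 39.9% of the 100-base windows of *Lats2* transcripts are shared with Gm49361, an overlapping gene model on the same strand without a row in the tables, so reads of both cannot be told apart.
*Lats1* (Entrez gene 16798, chr10:7681200-7716461) held 74.0, 104 and 128 CPM in control, 92.5, 86.6 and 70.5 CPM in *Nf2*-KO, 81.1, 91.5 and 78.2 CPM in labelled *Rasa1*-KO and 93.1, 88.3 and 96.9 CPM in labelled double-KO. All 3 groups overlapped control. The intervals against control were -0.67 to 0.09 in *Nf2*-KO, -0.67 to 0.09 in labelled *Rasa1*-KO and -0.52 to 0.24 in labelled double-KO, on the log2 scale. Without control unnumbered, *Lats1* was lower than control by a log2 difference of -0.48 in *Nf2*-KO (edgeR adjusted p = 0.00521) and -0.47 in labelled *Rasa1*-KO (edgeR adjusted p = 0.00581), and both passed.

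Of the 2 MST kinase genes, *Stk3* rose in *Nf2*-KO and labelled *Rasa1*-KO, as did *Sav1*. Against control, *Stk4* passed the test only in labelled *Rasa1*-KO, where it was lower, and not under all alternatives. *Stk3* (Entrez gene 56274, chr15:34875499-35155882) held 52.0, 43.1 and 40.7 CPM in control, 60.8, 67.5 and 63.2 CPM in *Nf2*-KO and 67.3, 60.4 and 68.1 CPM in labelled *Rasa1*-KO. Labelled double-KO libraries held 40.4, 41.6 and 43.6 CPM of *Stk3* and overlapped control. It was 1.41-fold higher in *Nf2*-KO (log2 0.49, 95% confidence interval 0.26 to 0.73, edgeR adjusted p = 0.00319) and 1.44-fold higher in labelled *Rasa1*-KO (log2 0.53, 0.29 to 0.76, edgeR adjusted p = 0.00239). The labelled double-KO interval was -0.35 to 0.12 on the log2 scale.
*Stk4* (Entrez gene 58231, chr2:164074113-164155524) held 49.5, 52.2 and 49.5 CPM in control and 40.8, 42.5 and 41.5 CPM in labelled *Rasa1*-KO, below every control library. Its level there was 1.21-fold lower (log2 -0.28, 95% confidence interval -0.46 to -0.09, edgeR adjusted p = 0.0213). *Nf2*-KO libraries held 48.9, 47.3 and 44.6 CPM of *Stk4*, also below every control library, with a log2 difference of -0.10 that did not pass the test (edgeR adjusted p = 0.343). Labelled double-KO held 55.7, 49.8 and 55.1 CPM and overlapped control. When the trend of each library on transcript length was removed, an alternative chosen after the data were seen, the *Stk4* difference in labelled *Rasa1*-KO was 0.02 (edgeR adjusted p = 0.935). The *Stk4* call in labelled *Rasa1*-KO was also lost without control 1 (edgeR adjusted p = 0.0673) and without any single library of labelled *Rasa1*-KO (edgeR adjusted p between 0.0504 and 0.0778). It was lost as well when only these groups were fitted (edgeR adjusted p = 0.120) and with limma on either FPKM scale (limma adjusted p = 0.0678 and 0.0705), so 15 of 23 alternatives kept it.
*Sav1* (Entrez gene 64010, chr12:69965009-69988141) held 51.7, 51.0 and 63.1 CPM in control, 75.2, 79.7 and 76.0 CPM in *Nf2*-KO and 86.9, 89.9 and 86.5 CPM in labelled *Rasa1*-KO. Both groups lay above every control library, by 1.39-fold (log2 0.48, 95% confidence interval 0.26 to 0.70, edgeR adjusted p = 0.00266) and 1.59-fold (log2 0.67, 0.45 to 0.89, edgeR adjusted p = 3.29e-04). Labelled double-KO libraries held 69.6, 62.3 and 62.2 CPM, overlapped control, and had a log2 difference of 0.23 (edgeR adjusted p = 0.220). Without control 2 that difference was 0.34 and passed the test (edgeR adjusted p = 0.0353). *Sav1* shares 1336 exonic bases with *Atl1* on the opposite strand. *Atl1* held between 1.81 and 4.46 CPM over the 12 libraries, and the strand setting of the counting is not given in the sources used here.

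The *Mob1* genes encode co-activators of LATS kinases, and *Mob1b* differed more between its control libraries than any other member. *Mob1b* (Entrez gene 68473, chr5:88720871-88758455) held 30.7, 55.9 and 79.2 CPM in control unnumbered, 1 and 2. It held 31.4, 27.8 and 24.9 CPM in *Nf2*-KO, 38.1, 36.8 and 29.0 CPM in labelled *Rasa1*-KO and 45.5, 45.4 and 48.6 CPM in labelled double-KO. All 3 groups overlapped control, whose highest library was 2.58 times its lowest. *Mob1b* was 1.97-fold lower in *Nf2*-KO than in control (log2 -0.98, 95% confidence interval -1.55 to -0.41, edgeR adjusted p = 0.0104), a call lost when only these groups were fitted (edgeR adjusted p = 0.0582). Its log2 difference in labelled *Rasa1*-KO was -0.67 (edgeR adjusted p = 0.0556) and in labelled double-KO -0.25 (edgeR adjusted p = 0.636). Without control unnumbered these were -0.96 (edgeR adjusted p = 1.70e-04) and -0.53 (edgeR adjusted p = 0.0214). In labelled *Rasa1*-KO the *Mob1b* difference also passed with the replicate block by the numbers of the table names (log2 -0.69, edgeR adjusted p = 0.0295), by DESeq2 (adjusted p = 0.0362) and with total counts alone (edgeR adjusted p = 0.0343).
*Mob1a* (Entrez gene 232157, chr6:83326034-83342812) held 159, 113 and 104 CPM in control, in the reverse order of *Mob1b*. It held 142, 156 and 148 CPM in *Nf2*-KO, 160, 157 and 158 CPM in labelled *Rasa1*-KO and 136, 122 and 121 CPM in labelled double-KO. No comparison of *Mob1a* between 2 groups passed the test. The log2 difference from control was 0.25 in *Nf2*-KO (-0.05 to 0.55) and 0.34 in labelled *Rasa1*-KO (0.03 to 0.64, edgeR adjusted p = 0.0707). With the replicate block by the numbers of the table names, these *Mob1a* differences were 0.39 and 0.48 and passed the test (edgeR adjusted p = 0.0134 and 0.00527). Without control unnumbered they were 0.46 and 0.55.

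The *Wwc* genes encode scaffolds with WW domains that bind LATS kinases and NF2, and neither passed the test in any comparison of 2 groups. *Wwc1* (Entrez gene 211652, chr11:35838399-35980527) held 91.4, 125 and 137 CPM in control, 113, 98.5 and 96.7 CPM in *Nf2*-KO, 122, 148 and 130 CPM in labelled *Rasa1*-KO and 126, 128 and 120 CPM in labelled double-KO. *Wwc2* (Entrez gene 52357, chr8:47826082-47990544) held 32.9, 45.1 and 55.7 CPM in control, 57.3, 55.6 and 46.6 CPM in *Nf2*-KO, 49.2, 57.8 and 47.6 CPM in labelled *Rasa1*-KO and 45.0, 44.1 and 43.7 CPM in labelled double-KO. Both genes overlapped control in all 3 groups. The log2 intervals against control were -0.51 to 0.11, -0.13 to 0.49 and -0.23 to 0.39 for *Wwc1* in *Nf2*-KO, labelled *Rasa1*-KO and labelled double-KO. For *Wwc2* they were -0.11 to 0.62, -0.15 to 0.57 and -0.37 to 0.36. After the trend on transcript length was removed, *Wwc2* was higher than control by 0.55 in *Nf2*-KO (edgeR adjusted p = 3.90e-04) and 0.58 in labelled *Rasa1*-KO (edgeR adjusted p = 3.36e-04). Without control unnumbered, *Wwc1* was lower in *Nf2*-KO than in control (log2 -0.35, edgeR adjusted p = 0.00959), and without control 2, *Wwc2* was higher (log2 0.43, edgeR adjusted p = 0.0426). *Wwc2* shares 995 exonic bases with *Cldn22* on the opposite strand.

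**Figure D2:**
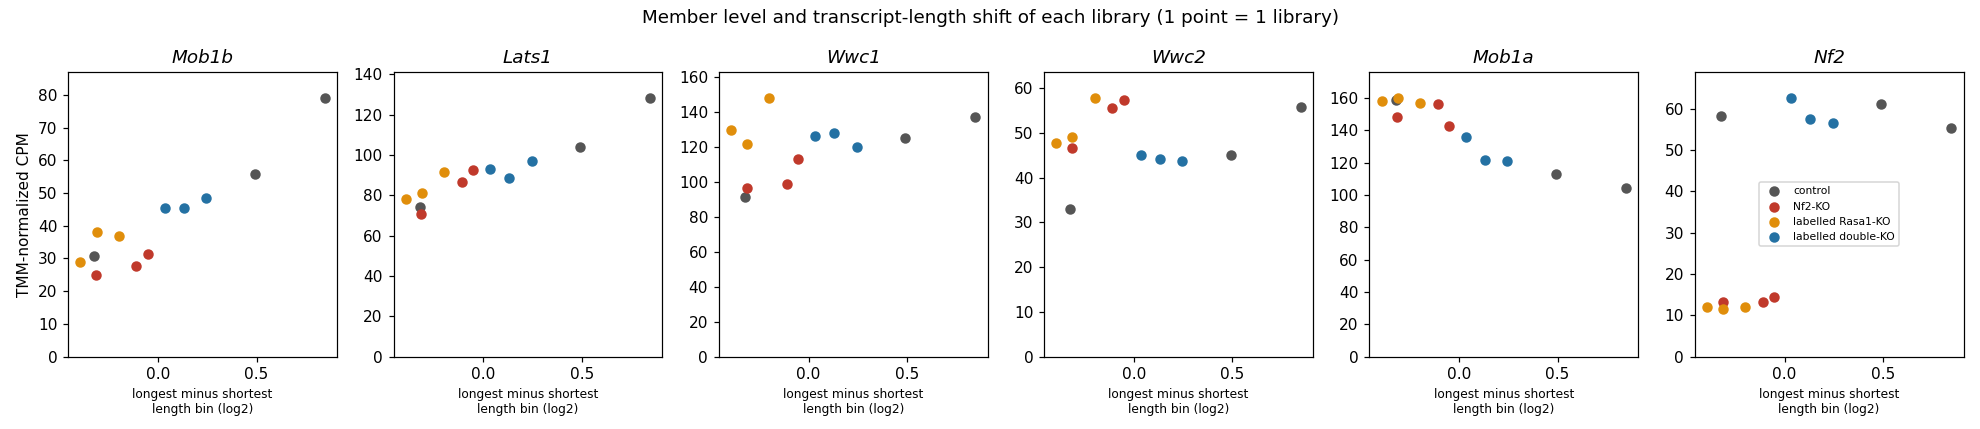
CPM of 6 members (vertical axes, from 0) against the log2 difference between the longest and the shortest of 4 bins of genes (horizontal axes), with 1 point per library. In the 3 control libraries *Mob1b*, *Lats1*, *Wwc1* and *Wwc2* were higher where this difference was higher (-0.32, 0.49 and 0.85), and *Mob1a* was lower. *Nf2* lay between 55.4 and 62.6 CPM in control and labelled double-KO and between 11.6 and 14.3 CPM in the other groups.

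In the control libraries, the levels of *Mob1b*, *Lats1*, *Wwc1* and *Wwc2* had the same order as the transcript-length difference of the library, and that of *Mob1a* had the reverse order. The part of this difference in the comparisons with control was not tested apart from the alternative that removes it. With the trend removed, the differences of *Nf2*, *Lats2*, *Sav1* and *Stk3* against control in *Nf2*-KO and labelled *Rasa1*-KO passed the test. Those 8 differences passed it under all 23 alternatives that kept the groups and the calling rule.

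**Figure D3:**
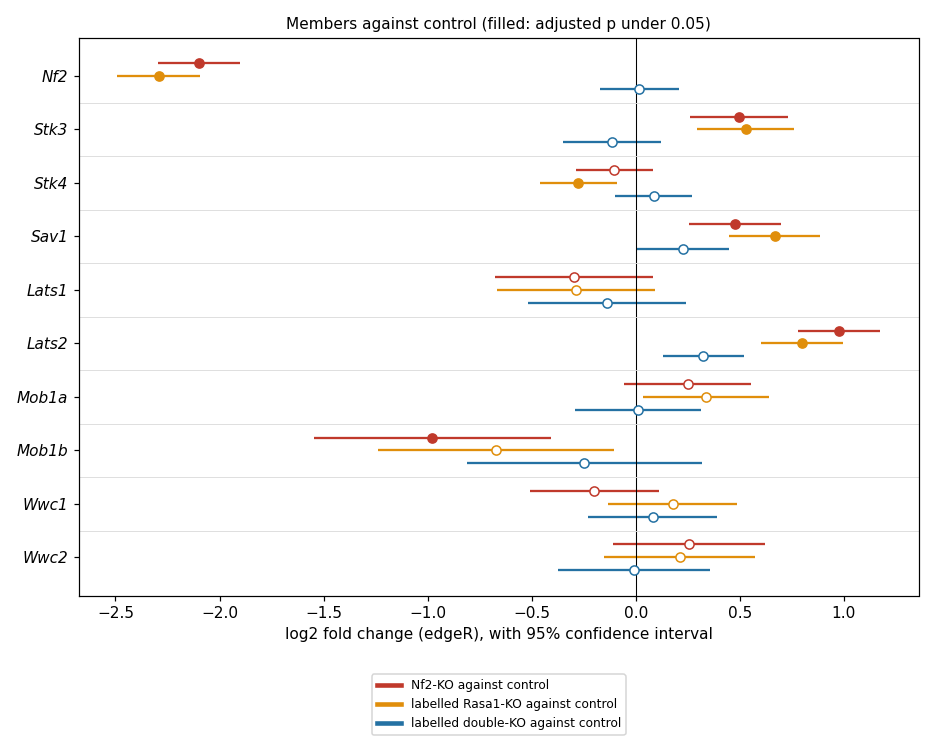
Log2 fold change of each member against control (horizontal axis) in *Nf2*-KO, labelled *Rasa1*-KO and labelled double-KO, with 95% confidence intervals from edgeR. Filled points passed an adjusted p of 0.05, and *Nf2*, *Stk3*, *Sav1* and *Lats2* are filled in the first 2 comparisons, where *Nf2* is at -2.10 and -2.29, and no point is filled in labelled double-KO.

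In *Nf2*-KO against control, 3 members rose (*Lats2*, *Sav1* and *Stk3*) and 2 fell (*Nf2* and *Mob1b*), where 20.6% of all genes tested rose and 22.2% fell. In labelled *Rasa1*-KO against control, the same 3 rose and *Nf2* and *Stk4* fell, where 19.7% of all genes rose and 22.2% fell. In labelled double-KO against control, 0 members passed the edgeR test, where 6.46% of all genes did. At an unadjusted p under 0.05 there were 2 (*Lats2* and *Sav1*), where 21.2% of all genes had such a p. DESeq2 called 1 member (*Lats2*, log2 0.34) and 2094 of 18926 genes. When only labelled double-KO and control were fitted in edgeR, 0 members and 18 of 17642 genes passed. The members' median log2 fold change was 0.07 in *Nf2*-KO, 0.19 in labelled *Rasa1*-KO and 0.01 in labelled double-KO, beside medians of -0.07, -0.08 and -0.04 over all genes. The share of members called is near that of all genes and is no result about the members as a set, and *Nf2*, the targeted gene, is among those called. Without control unnumbered, 8 members passed in *Nf2*-KO and 8 in labelled *Rasa1*-KO, where 61.6% and 60.5% of all genes did. In both comparisons the added members included *Lats1* and *Mob1a*.
By the fold change of at least 3 with a raw p under 0.05 that the study used, *Nf2* was the 1 member called in *Nf2*-KO (11.4% of all genes were called) and in labelled *Rasa1*-KO (9.27%). No member was called by it in labelled double-KO against control (2.03%).

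The remaining comparisons set the groups against each other. Labelled double-KO differed from labelled *Rasa1*-KO in 5 members: *Nf2* (log2 2.31) and *Stk4* (0.36) were higher and *Stk3* (-0.64), *Lats2* (-0.47) and *Sav1* (-0.44) were lower. Of all genes tested, 16.3% were higher and 14.0% lower. The *Stk4* call was lost after removal of the length trend (log2 0.11, edgeR adjusted p = 0.558) and with limma on either FPKM scale (limma adjusted p = 0.217 and 0.227). Against *Nf2*-KO, *Nf2* was higher (log2 2.12) and *Lats2* (-0.65) and *Stk3* (-0.61) were lower in labelled double-KO, where 16.9% of all genes were higher and 15.3% lower. *Mob1b* narrowly missed the test there (log2 0.73, edgeR adjusted p = 0.0503). Labelled *Rasa1*-KO against *Nf2*-KO gave 0 members by edgeR, with 3.66% of all genes called. It gave 2 members at an unadjusted p under 0.05, beside 15.4% of all genes, and 0 by DESeq2, which called 1419 of 18926 genes. In that comparison, 6 of the 10 members did not overlap between the groups, with *Wwc1*, *Sav1* and *Mob1a* above and *Nf2*, *Lats2* and *Stk4* below. Of all genes tested, 19.5% lay above and 20.3% below without overlap. When only these 2 groups were fitted, *Wwc1* (log2 0.37), *Lats2* (-0.19) and *Sav1* (0.18) passed the test, where 25.8% of all genes in that fit did. By the rule of the study, *Nf2* was the 1 member called in labelled double-KO against labelled *Rasa1*-KO (5.66% of all genes) and against *Nf2*-KO (7.69%). No member was called by it between labelled *Rasa1*-KO and *Nf2*-KO (1.29%).

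Read by the table names, the 3 groups are *Nf2*-KO, double-KO (labelled *Rasa1*-KO) and *Rasa1*-KO (labelled double-KO). *Lats2*, *Sav1* and *Stk3* are then higher than control in both groups in which *Nf2* was targeted. Read by the labels, they are higher in *Nf2*-KO and *Rasa1*-KO and lower in double-KO than in either single knockout, with the exception of *Sav1* against *Nf2*-KO (edgeR adjusted p = 0.0780). The departure from additivity asks whether the log2 effect of both knockouts differs from the sum of the single ones. By the labels, 7 members departed from additivity, where 52.4% of all genes did. By the table names, 1 member did (*Lats2*, log2 -0.50, 95% confidence interval -0.78 to -0.23, edgeR adjusted p = 0.0355), where 6.41% of all genes did. *Lats2* lost this call without any single one of 8 libraries outside control, those being all but labelled double-KO 1. With the fold and raw p of the study, 1 member (*Nf2*) departed by the labels (25.2% of all genes) and 0 by the table names (3.81%).

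Shares within pairs of related genes compare the members with each other inside a library, as the share of the pair's FPKM. *Lats2* made up 34.2%, 30.0% and 24.3% of *Lats1* and *Lats2* in control. It made up 49.7 ± 2.57% (SD, n = 3) in *Nf2*-KO, 46.8 ± 1.47% in labelled *Rasa1*-KO and 35.7 ± 0.560% in labelled double-KO, and every library of these groups was above every control library. *Stk3* made up 64.9 ± 0.812% of *Stk3* and *Stk4* in control and was above it in every library of *Nf2*-KO (73.0 ± 3.63%) and labelled *Rasa1*-KO (75.8 ± 3.25%). In labelled double-KO its share of 63.2 ± 0.037% was below every control library. *Mob1a* made up 68.3 ± 13.9% of *Mob1a* and *Mob1b* in control, and all 3 groups (83.5 ± 1.92%, 81.6 ± 2.11% and 72.2 ± 2.14%) overlapped it. *Wwc1* made up 79.5 ± 1.07% of *Wwc1* and *Wwc2* in control and less in every *Nf2*-KO library (73.7 ± 1.49%). The share of *Wwc1* in labelled *Rasa1*-KO (78.9 ± 0.801%) and labelled double-KO (80.3 ± 0.467%) overlapped control. With 3 libraries against 3, an exact permutation test cannot reach a p under 0.1, so the shares are given without a test.

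**Figure D4:**
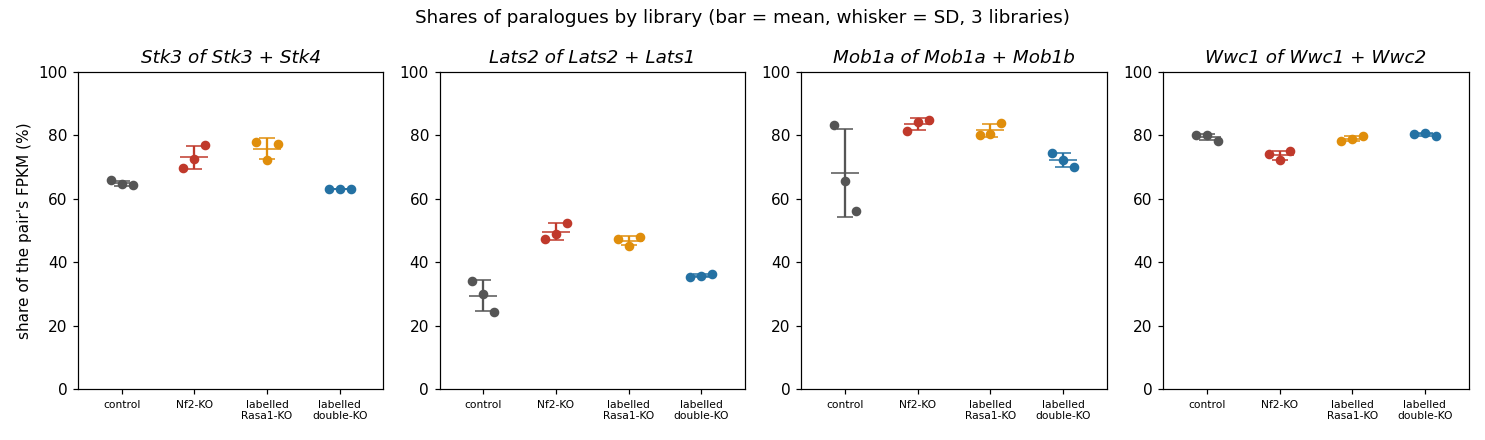
Share of the pair's FPKM (vertical axes, 0 to 100%) held by *Stk3*, *Lats2*, *Mob1a* and *Wwc1* in each library of the 4 groups, with the mean and SD (n = 3). The *Lats2* share is between 24.3% and 34.2% in control and higher in every other library.

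Other genes of the pathway were grouped by role, and the counts below stand beside the shares of all genes tested. Of all genes, 20.6% rose and 22.2% fell in *Nf2*-KO, and 19.7% rose and 22.2% fell in labelled *Rasa1*-KO. In labelled double-KO, 6.46% passed in either direction. When only labelled double-KO and control were fitted, 18 of 17642 genes passed. The calls given below for labelled double-KO are those of the fit of all 4 groups. Of 15 upstream activators measured, 5 rose and 4 fell in *Nf2*-KO, 4 rose and 5 fell in labelled *Rasa1*-KO, and 1 rose in labelled double-KO, all against control. Their median log2 fold changes were 0.09, -0.01 and 0.17. *Frmd6*, a FERM-domain relative of the fly gene expanded, rose in all 3 groups, by log2 1.63 (standard error 0.10), 1.31 (0.10) and 0.76 (0.09). *Fat4*, an atypical cadherin, held 8.92 ± 4.82 CPM (SD, n = 3) in control and 34.1 ± 2.99 CPM in *Nf2*-KO (log2 1.94, edgeR adjusted p = 0.00188). In labelled *Rasa1*-KO *Fat4* held 8.84 ± 1.70 CPM. *Rassf5*, which encodes a partner of MST kinases, rose by 0.89 and 0.96 in *Nf2*-KO and labelled *Rasa1*-KO. The kinase genes *Tnik* (-1.35 and -0.91) and *Taok3* (-1.26 and -0.94) fell in these groups, and *Taok3* overlapped control in labelled *Rasa1*-KO.
Of 16 inhibitors of the cassette, 7 rose and 4 fell both in *Nf2*-KO and in labelled *Rasa1*-KO, and 1 rose and 1 fell in labelled double-KO, with medians of 0.21, 0.20 and 0.09. *Ajuba* and *Wtip*, whose LIM-domain products bind LATS kinases, rose by log2 1.48 and 1.26 in *Nf2*-KO and by 1.53 and 1.37 in labelled *Rasa1*-KO. *Limd1*, another LIM-domain gene of this list, went the other way. It held 141 ± 34.2 CPM (SD, n = 3) in control, 90.0 ± 1.32 CPM in *Nf2*-KO and 102 ± 1.83 CPM in labelled *Rasa1*-KO. Both groups lay below every control library of *Limd1*, and labelled double-KO (124 ± 12.8 CPM) overlapped control. *Siah2*, a ubiquitin ligase gene, rose in all 3 groups (1.41, 1.18 and 0.80). *Strip2* and *Slmap*, of the STRIPAK phosphatase complex that acts on MST kinases, fell by 2.18 and 0.97 in *Nf2*-KO and by 2.07 and 0.72 in labelled *Rasa1*-KO. *Strip2* also fell by 0.77 in labelled double-KO.
Of 11 effectors and partners, 4 rose and 1 fell in *Nf2*-KO, 2 rose and 3 fell in labelled *Rasa1*-KO, and 2 rose and 1 fell in labelled double-KO, with medians of 0.46, 0.24 and 0.17. *Amotl2*, an angiomotin family member that binds YAP, held 38.9 ± 9.66 CPM (SD, n = 3) in control, 292 ± 6.86 CPM in *Nf2*-KO, 197 ± 5.93 CPM in labelled *Rasa1*-KO and 57.5 ± 13 CPM in labelled double-KO. Its log2 fold changes were 2.91, 2.34 and 0.56, of which the last missed the threshold (edgeR adjusted p = 0.102). *Amotl1* rose (1.49, 1.34 and 0.45) and *Amot* fell (-0.97, -1.18 and -0.55) in all 3 groups. *Wwtr1*, which encodes TAZ, rose in *Nf2*-KO (0.46) and in labelled double-KO (0.54), and had 0.24 in labelled *Rasa1*-KO (edgeR adjusted p = 0.117). *Vgll3* rose in *Nf2*-KO from a low level (1.60 ± 1.40 CPM in control and 4.56 ± 0.547 CPM, SD, n = 3).
Among the NDR kinases and *Mob2* (3 genes), *Stk38* fell by 0.50 in *Nf2*-KO and 0.57 in labelled *Rasa1*-KO. The ERM genes, closest relatives of *Nf2*, did not move as 1 group. *Rdx* rose (0.73 and 0.62) and *Msn* fell (-0.93 and -1.13) in *Nf2*-KO and labelled *Rasa1*-KO, with *Msn* overlapping control in *Nf2*-KO. *Ezr* rose in labelled *Rasa1*-KO (0.49) and labelled double-KO (0.56).

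**Figure D5:**
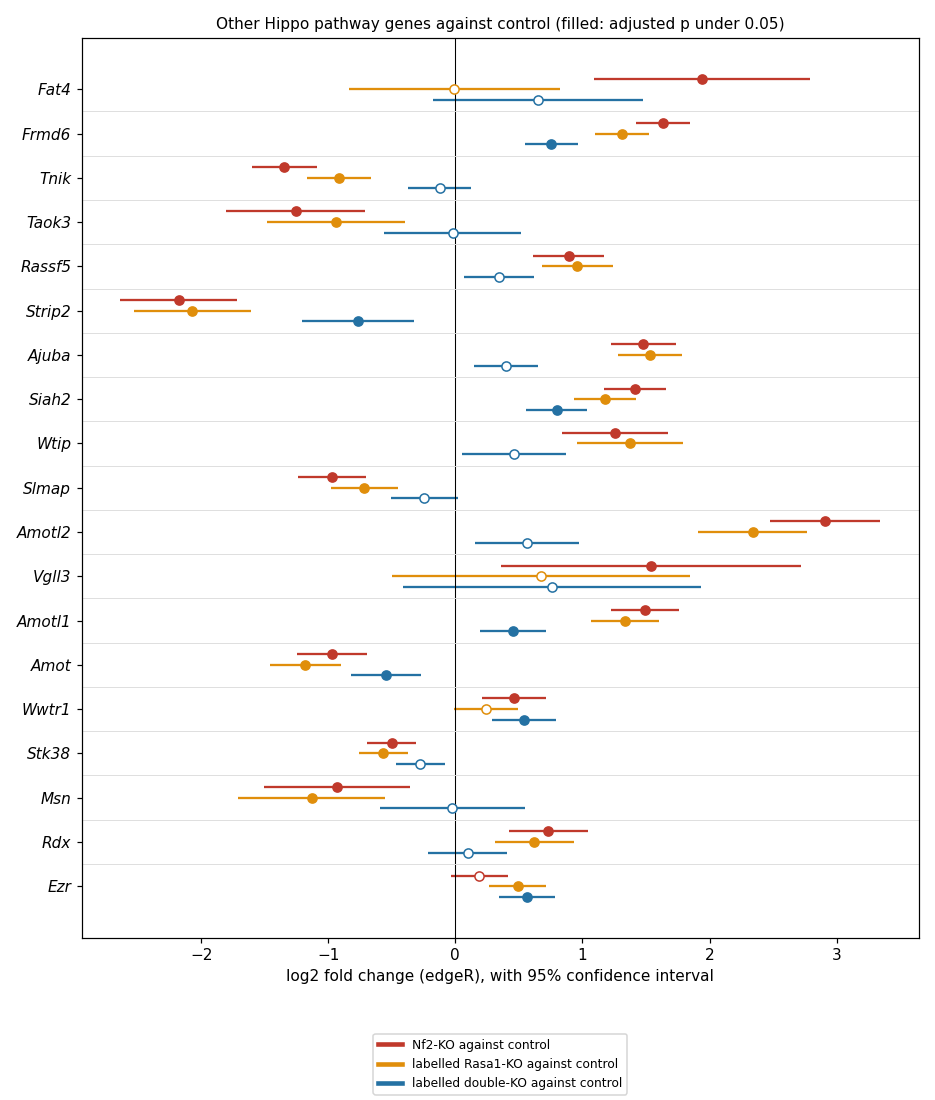
Log2 fold change against control (horizontal axis) of 19 other Hippo pathway genes in *Nf2*-KO, labelled *Rasa1*-KO and labelled double-KO, with 95% confidence intervals from edgeR. Filled points passed an adjusted p of 0.05, and *Amotl2* lies at 2.91, 2.34 and 0.56.

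The 5 genes whose log2 CPM was most like that of *Nf2* over the 12 libraries were *Hpx*, *Gc*, *Adora1*, *Hp* and *Fgb*, with Pearson's r between 0.993 and 0.996. The libraries fall into 2 sets by *Nf2* level, so these values describe the difference between sets. *Hpx*, *Gc*, *Hp* and *Fgb* encode plasma proteins. No member passed the test against control in all 3 groups.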

How the data were processed

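Total RNA of 12 libraries was sequenced after removal of rRNA with a stranded kit (paired reads of 100 bases). Per the labels and the methods of the study, Trimmomatic 0.38 was used for trimming, HISAT2 2.1.0 for alignment to mm10, SAMtools 1.9, and StringTie 2.1.3b for quantification of RefSeq genes. The authors deposited raw read counts per gene, and FPKM and TPM, which divide by length and depth. The authors also deposited a log2 value per gene, which was not used. Groups followed the labels, and the members, lists and tests were chosen with earlier results of these data known.

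Counts were fitted in R 4.3.3 with edgeR 4.0.16 (filterByExpr, TMM, quasi-likelihood test, 1 fit of the 4 groups, Benjamini-Hochberg over 18053 genes, called at an adjusted p under 0.05). Log2 CPM had a prior count of 2. Alternatives used DESeq2 1.42.0, limma 3.58.1 on log2(FPKM + 1) and log2(FPKM + 0.1), other scaling, filters, blocks and libraries left out. On the FPKM scales a fold change understates that of low genes. The code was tested on simulated data. Figures were drawn with matplotlib 3.10.9, and gene positions are from the RefSeq table of GRCm38.p6, which held 18878 of the 18926 genes.

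Named genes were the 10 members, *Rasa1*, and, of 5 other pathway lists, those called against control in at least 1 group without overlap in CPM and among the 5 largest log2 changes of their list. *Limd1* was named outside this rule, as a LIM-domain gene beside *Ajuba* and *Wtip*. Libraries numbered alike in the sample titles did not deviate together (correlations between -0.38 and 0.40). By the numbers in the table names, the 3 like-numbered pairs of a control and a labelled double-KO library had 0.63, 0.31 and 0.44. Pairs of these groups with unlike numbers had 0.26 and 0.40, and pairs of an unnumbered and a numbered library lay between -0.56 and -0.38. Like-numbered pairs of the other groups lay between -0.06 and 0.17. No label says what the numbers share. Guide sequences were not used here.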

Additional observations from a re-analysis of the deposited data

Results flagged for a closer look

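The effect of the *Nf2* knockout was compared between cells with and without the *Rasa1* knockout by the departure from additivity, which is a log2 difference of differences tested in edgeR. By the labels it differed for 7 members, where 52.4% of all genes did, and each value rests on which group is the double-KO. It was 4.41 for *Nf2* (edgeR adjusted p = 7.79e-10), 1.40 for *Mob1b* (edgeR adjusted p = 0.00740) and 0.47 for *Stk4* (edgeR adjusted p = 0.00659). It was -1.45 for *Lats2* (edgeR adjusted p = 2.83e-06), -1.14 for *Stk3* (edgeR adjusted p = 7.86e-05), -0.92 for *Sav1* (edgeR adjusted p = 2.39e-04) and -0.58 for *Mob1a* (edgeR adjusted p = 0.0277). Over 22 alternatives that kept the groups, *Mob1a* passed in 14 (adjusted p up to 0.0766 in edgeR), *Stk4* passed in 19, and the other 5 passed in all. For *Nf2* the value joins a low mRNA level in *Nf2*-KO and in the group labelled *Rasa1*-KO with a control level in the group labelled double-KO. By the table names, *Lats2* alone of the 10 members departed from additivity, by -0.50 (edgeR adjusted p = 0.0355), where 6.41% of all genes did. Over 22 alternatives that kept the groups, its value lay between -0.57 and -0.37 and passed the threshold in 10.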

How the results depend on the processing

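Counts of members called are given in the order *Nf2*-KO, labelled *Rasa1*-KO and labelled double-KO against control, labelled double-KO against labelled *Rasa1*-KO, labelled *Rasa1*-KO and labelled double-KO against *Nf2*-KO, and additivity by the labels and by the table names; the main counts were 5, 5, 0, 5, 0, 3, 7 and 1. With 1 library left out they ranged from 5 to 8, 4 to 8, 0 to 2, 5 to 7, 0 to 1, 3 to 7, 6 to 8 and 0 to 3, with the highest counts without control unnumbered. Of 18180 genes tested without control unnumbered, 11197, 10993, 5477, 8436, 2219, 8627, 11888 and 3762 were called, in the same order. Without the 2 libraries whose tables have no number, the counts that moved by over 1.5 times were 8, 8 and 2 against control, 1 and 7 against *Nf2*-KO, and 3 by the table names. Of 18169 genes tested there, 12170, 11969 and 5433 were called against control, 3494 and 9199 against *Nf2*-KO, and 4603 by the table names. The fold rule of the study gave 1, 1, 0, 1, 0, 1, 1 and 0. In labelled double-KO against control, 1 member (*Lats2*) was called by DESeq2, without the filter on low counts, with the replicate block by the table names and after removal of the length trend (chosen after seeing the data). In that order, 2094 and 1041 of 18926 genes, and 2501 and 1424 of 18053 genes, were called. Labelled double-KO against *Nf2*-KO gave 5 by DESeq2 (6538 of 18926 genes called) and 5 with the replicate block by the table names (7630 of 18053). It gave 5 after removal of the length trend (6275 of 18053) and 7 with only the groups compared (8152 of 17600). Labelled *Rasa1*-KO against *Nf2*-KO gave 3 with only the groups compared (4527 of 17550 genes called) and 1 after removal of the length trend (767 of 18053). Additivity by the table names gave 0 with total counts alone, with limma on either FPKM scale and with the replicate block by the titles. In that order, 1312, 1345 (pseudocount 1), 1197 (pseudocount 0.1) and 305 of 18053 genes were called. The block by the titles otherwise added *Mob1a* in labelled *Rasa1*-KO against control (0.36). The numbers of the titles do not pair the libraries.

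With the groups exchanged as in the table names, the counts were 5, 0, 5, 5, 3, 0, 1 and 7, and the differences take each other's place. *Nf2*, *Stk3* and *Stk4* then had 0.017, -0.11 and 0.086 in labelled *Rasa1*-KO against control and -2.29, 0.53 and -0.28 in labelled double-KO against control. Labelled double-KO against labelled *Rasa1*-KO became -2.31 for *Nf2*, 0.64 for *Stk3*, -0.36 for *Stk4*, 0.47 for *Lats2* and 0.44 for *Sav1*. Against *Nf2*-KO, *Nf2* and *Stk3* had 2.12 and -0.61 in labelled *Rasa1*-KO and -0.19 and 0.033 in labelled double-KO. Additivity by the labels became -0.21 for *Nf2*, 0.15 for *Stk3*, -0.26 for *Stk4* and 0.078 for *Mob1a*, and by the table names 4.41, -1.14, 0.47 and -0.58. Removal of the length trend turned *Stk4* to 0.016 in labelled *Rasa1*-KO against control and to -0.0059 in additivity by the labels. Total counts alone moved the median of all genes against control to -0.16, -0.23 and -0.16, and the 3 members that rose in *Nf2*-KO and in labelled *Rasa1*-KO rose there too. Other causes were not tested.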
